A study of Mus musculus with 8 samples.

Results

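The comparison described here is the differentiation of mouse brain neural progenitor cells that carried lentiviral hairpins against Fubp1. It sets 1 library of differentiating FUBP1-targeted cells (named FUBP1-D) against 1 library of the same kind of cells kept proliferating (named FUBP1), which are 2 of the 8 libraries in the series. The comparison covered the rows of the table that reached 1 FPKM in 2 or more libraries, 11968 of 20793. FPKM is the number of sequenced fragments scaled to transcript length and to the size of the library. The other 6 libraries form an arm with non-targeting hairpins (NT, 2 proliferating libraries named TRC and GFP, and 2 differentiating libraries named 7 and GFP-D) and an arm targeted against Cic (libraries CIC and CIC-D).

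All libraries came from progenitors of strain FvB/C57BL/6. Proliferating cells were held in N2 medium with EGF and bFGF at 20 ng/ml, and differentiating cells spent 5 days in neurobasal medium with B27. The protocol describes lentiviral delivery and 3 days of puromycin selection for the hairpins against Fubp1, and gives neither the hairpins' sequences nor their number, nor the source of the hairpins against Cic. The labels do not state whether the NT libraries came from separate cultures, so tests that use their spread measure the difference between these libraries, which may be technical. With 1 library a side, the change in the FUBP1 arm itself has no replicate check and no p-value.

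Neural progenitors divide under EGF and bFGF and, once the growth factors are withdrawn, leave the cell cycle and mature into glia or neurons. Astrocytes are recognised by genes for water and glutamate transport, gap junctions and intermediate filaments. FUBP1 is a protein that binds single-stranded nucleic acids and is known for regulating Myc transcription and splicing, and CIC is a repressor of genes induced by growth factor signalling through ERK.

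The targeted gene did not separate the libraries by label. Fubp1 (chr3:151873422-151899794 on mm9) was at 34.8 FPKM in FUBP1 and 21.6 in FUBP1-D. The NT libraries had 50.2 in TRC, 12.4 in GFP, 24.8 in 7 and 25.4 in GFP-D, and the CIC arm had 34.8 and 26.9. The lowest value was thus in an NT library, and FUBP1-D was the lowest of the 4 differentiating libraries. FUBP1 and FUBP1-D are therefore called by their labels throughout. Kdm1a, the histone demethylase LSD1 named in the study's title, stayed within 1 on the log2 scale in every arm and was at 49.0 FPKM in FUBP1 and 46.3 in FUBP1-D. The table holds 1 value per gene, so its splice forms were not analysed here.

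Across the 11968 genes, the proliferating library labelled FUBP1 was closest to TRC, with a correlation of log2(FPKM + 1) of 0.980 and a median absolute difference of 0.15, whereas TRC and its fellow NT library GFP had a correlation of 0.914 and a difference of 0.42. FUBP1-D was closest to the NT library 7 (0.959). The FPKM values summed to between 426984 and 541608 per library. All 6 microglial markers were under 1 FPKM in every library, the endothelial and pericyte markers summed to 0.413 FPKM in FUBP1 and 0.459 in FUBP1-D, and of 6 fibroblast markers only Ogn reached 1 FPKM in FUBP1-D. The neuronal markers Rbfox3, Dcx and Snap25 and the oligodendrocyte markers Sox10, Mog and Mag were under 1 FPKM in every library. In bulk RNA, fewer cells of a type and less RNA per cell cannot be told apart.

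In FUBP1-D genes of DNA replication and mitosis were lower than in FUBP1 and genes of astrocytes, complement and antigen presentation were higher, and most of the large changes were also present in the other arms. Changes are differences of log2(FPKM + 1) between the differentiating and the proliferating library (for NT, between the means of both libraries of each state), which understates changes of low genes, and a change of at least 1 is called past 1. In the FUBP1 arm 1919 genes were higher by this measure (16.0% of those tested) and 1598 were lower (13.4%). The NT arm had 13.1% higher and 10.0% lower, and the CIC arm 19.6% higher and 13.9% lower. The NT shares are by the means of 2 libraries per state, with 2765 genes past 1 in either direction. The single pairings 7 minus TRC and 7 minus GFP had 3878 and 2715 such genes, against 3517 in the FUBP1 arm. The median gene moved by 0.09 in the FUBP1 arm, 0.08 in the NT arm and 0.10 in the CIC arm. Genes past 1 in the FUBP1 arm differed in the length of their locus, with a median span of 27.7 kb for the higher genes, 14.4 kb for the lower ones and 23.3 kb for the rest.

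Of the 1919 higher genes, 849 (44.2%) were past 1 upwards in both other arms, 278 (14.5%) in the NT arm and not in the CIC arm, 304 (15.8%) in the CIC arm and not in the NT arm, and 488 (25.4%) in neither. The 1598 lower genes divided similarly, with 724 (45.3%) in both, 263 (16.5%) in the NT arm, 189 (11.8%) in the CIC arm and 422 (26.4%) in neither. Changes of 2 or more were matched more often: 325 of 431 higher genes (75.4%) and 336 of 427 lower genes (78.7%) were past 1 in both other arms, and 27 and 19 were past 1 in neither. Genes past 1 in neither other arm lay closer to the threshold and mostly kept their sign. The 488 higher genes past 1 in neither had a median change of 1.21 in the FUBP1 arm, 0.63 in the NT arm and 0.41 in the CIC arm, and the 422 lower ones had -1.21, -0.69 and -0.38. In all, 1741 of the 1919 higher genes (90.7%) and 1400 of the 1598 lower genes (87.6%) had the same sign in both other arms.

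**Figure D1:**
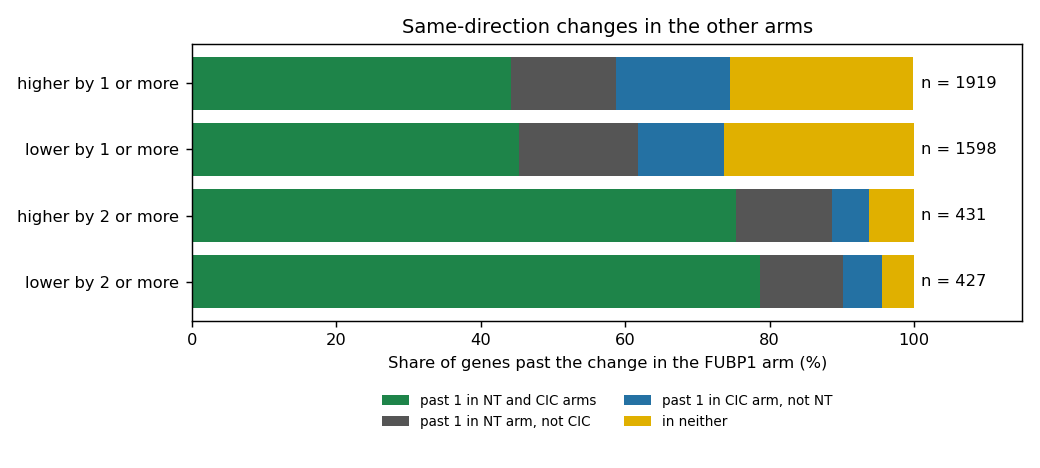
Share of genes past 1 (upper bars) or past 2 (lower bars) in the FUBP1 arm that were past 1 in the same direction in the NT arm, the CIC arm, both or neither, with the number of genes at the right. In both arms stood 44.2% of higher and 45.3% of lower genes, and 75.4% and 78.7% of those past 2.

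Read the other way, 849 of the 1114 genes past 1 upwards in both other arms were also past 1 upwards in the FUBP1 arm (76.2%), as were 724 of the 821 genes past 1 downwards (88.2%). The FUBP1 arm shares no library with either other arm. Across genes, which are not independent, its changes correlated with the NT arm at r = 0.862 (Spearman's rho 0.849) and with the CIC arm at r = 0.714 (0.682). The likeness depended on the NT library: r was 0.833 for 7 minus TRC, 0.797 for GFP-D minus TRC, 0.75 for GFP-D minus GFP and 0.661 for 7 minus GFP. The pairings with GFP held fewer matches, with 851 of the 1919 higher genes (44.3%) past 1 in GFP-D minus GFP against 1320 (68.8%) in 7 minus TRC. Leaving GFP out of the NT arm gave 1737 changes matched in both arms, and leaving TRC out gave 1225, against 1573 with both. The NT arm's own disjoint pairings correlated at 0.706 (7 minus TRC with GFP-D minus GFP) and 0.461 (7 minus GFP with GFP-D minus TRC).

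**Figure D2:**
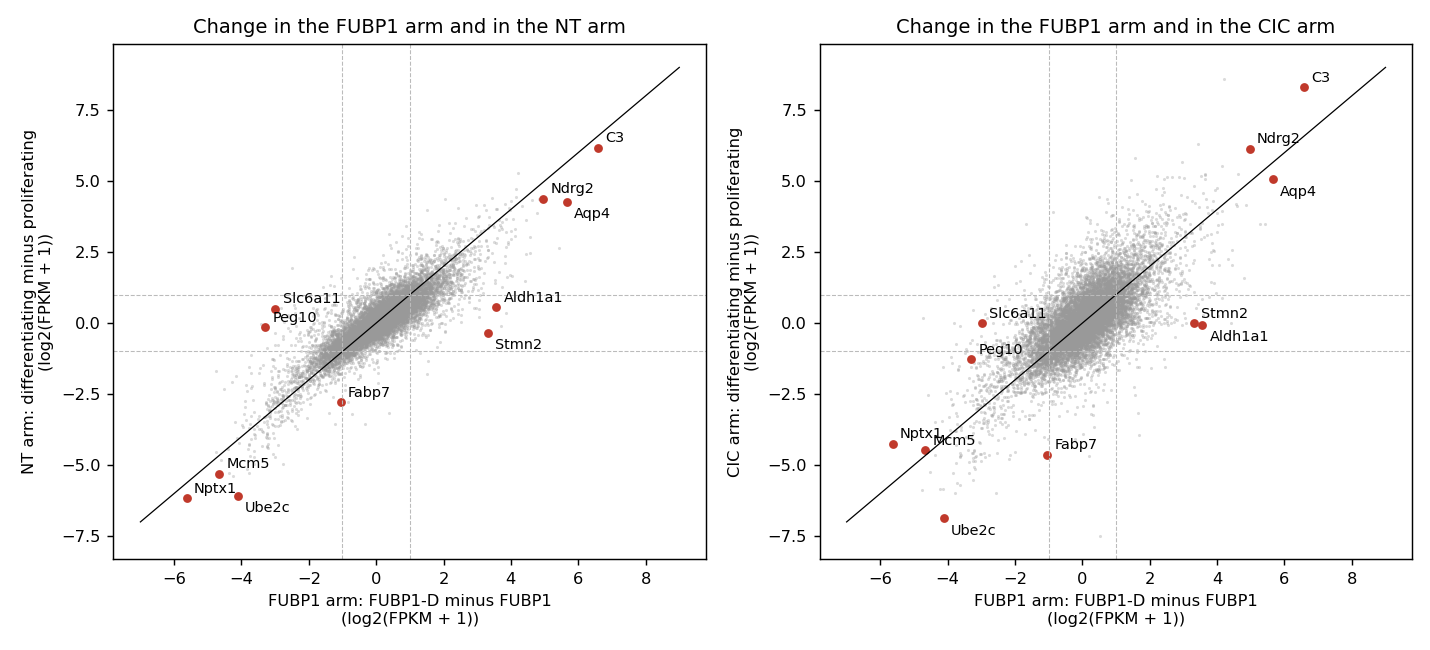
Change in the FUBP1 arm (horizontal) against the change in the NT arm (left) and the CIC arm (right), both as differences of log2(FPKM + 1), 1 point per gene. The solid line marks equal changes and the dashed lines mark 1; C3, Aqp4 and Nptx1 have changes of the same sign in all arms, while Slc6a11 and Aldh1a1 lie far from the line in both panels.

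A limma test of the difference between arms, in which the single FUBP1 and CIC libraries were assumed to vary like the NT pairs, called 0 genes at an adjusted p under 0.05 (0.0% of those tested) for the FUBP1 against the NT response and 0 (0.0%) for the FUBP1 against the CIC response. Unadjusted p fell under 0.05 for 99 genes against NT and 444 against CIC, where chance would give 598. With 2 residual degrees of freedom this says little about large differences as well as small ones. Even a difference of -3.34 ± 0.66 (SE) from the NT arm, that of Pla2g3, was not called. The error came from the spread of the NT libraries, and TRC was less like GFP (r = 0.914) than like FUBP1 (0.980). A gene that was not called is therefore not shown to respond alike in the arms. Differences between arms of the genes named below are given as a description, as are those of the lists, which were not tested. The gene lists below group genes by function, and their counts stand beside the 16.0% and 13.4% of all genes.

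Genes of DNA replication were lower in FUBP1-D nearly without exception. Of 40 replication genes, 39 were lower by 1 or more and none higher, with a median change of -2.93, and 32 of these 39 were past 1 in both other arms. The NT arm had 38 lower (median -2.65) and the CIC arm 32 (median -1.59). Mcm5, a subunit of the replicative helicase, was at 65.9 FPKM in FUBP1 and 1.64 in FUBP1-D. Its NT levels were 65.6 and 33.2 in TRC and GFP and 0.175 and 0.241 in 7 and GFP-D. Tk1, thymidine kinase, went from 97.3 to 3.06 FPKM, Rrm2, the small subunit of ribonucleotide reductase, from 198 to 8.54, and Cdt1, a licensing factor, from 32.2 to 0.829. In CIC the list's summed level was lower to start with, at 799 FPKM against 2150 in FUBP1, and the differentiating sums lay closer together, at 193 and 240 FPKM.

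All 40 mitosis and spindle genes were lower by 1 or more in the FUBP1 arm, and all 40 also in the NT and the CIC arm. The median change was -3.24 in the FUBP1 arm, -3.98 in the NT arm (-4.89 to -3.08 over its 4 pairings) and -4.52 in the CIC arm. In the FUBP1 arm 34 of 40 (85.0%) had a smaller decrease than in both other arms, where 33.1% of all genes lay above both. Of the 40, 11 (27.5%, against 19.8% of all genes) had a smaller decrease than in all 4 NT pairings. The summed level of the list was 2660 FPKM in FUBP1 and 232 in FUBP1-D, whereas 7, GFP-D and CIC-D ended at 74.4, 59.4 and 63.1 FPKM. TRC had 2640 FPKM, GFP 857 and CIC 1950. So FUBP1-D held the highest remaining level of mitotic transcripts among the 4 differentiating libraries.

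Ube2c, the ubiquitin-conjugating enzyme of the anaphase-promoting complex (chr2:164595429-164598402 on mm9), stood at 205 FPKM in FUBP1, 205 in TRC, 54.9 in GFP and 175 in CIC. After differentiation it was at 10.9 FPKM in FUBP1-D, 0.864 in 7, 0.349 in GFP-D and 0.499 in CIC-D. The change was -4.11 against -6.08 in the NT arm, a difference of 1.97 ± 1.11 (SE; limma adjusted p = 1.0). Cdc20, the activator of the same complex, was at 122 FPKM in FUBP1 and 7.95 in FUBP1-D, with 0.233, 0.273 and 0.265 in the other differentiating libraries. Ccnb2, cyclin B2, went from 55.4 to 7.22 FPKM and ended between 0.121 and 0.314 elsewhere. Knstrn, a spindle protein, remained at 5.54 FPKM against 0.299 to 0.456. For each of these 4 genes FUBP1-D lay above every other differentiating library. All 4 were picked because their decrease fell short of both other arms by a large margin, a choice that favours such a level.

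The windows before the start sites of Ube2c, Cdc20, Ccnb2 and Mcm5 are shown. Promoters of mitotic genes are known for a CHR element and CCAAT boxes, and those of replication genes for E2F sites. Windows came from RefSeq (GRCm38.p6), which matched 9652 of the 11967 symbols, and 250 bases before each start were searched on both strands. The 150 bases nearest the start are printed 5′ to 3′ on the gene's strand, with matches in capitals: TTTGAA or TTTAAA (CHR), CCAAT, and TTTGGCGC, TTTCCCGC or TTTCGCGC (E2F), or their reverse complements.
Ube2c (chr2:164769779-164769928, plus strand): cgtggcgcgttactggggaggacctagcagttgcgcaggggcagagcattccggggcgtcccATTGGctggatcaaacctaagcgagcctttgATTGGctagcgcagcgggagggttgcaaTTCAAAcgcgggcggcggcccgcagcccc
Cdc20 (chr4:118437344-118437493, minus strand): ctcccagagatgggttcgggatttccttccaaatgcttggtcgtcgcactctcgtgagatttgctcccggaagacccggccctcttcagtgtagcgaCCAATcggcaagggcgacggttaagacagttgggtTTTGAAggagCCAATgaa
Ccnb2 (chr9:70421555-70421704, minus strand): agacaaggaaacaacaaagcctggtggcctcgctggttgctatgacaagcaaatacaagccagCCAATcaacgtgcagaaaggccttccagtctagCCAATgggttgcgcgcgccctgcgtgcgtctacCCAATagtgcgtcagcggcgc
Mcm5 (chr8:75109359-75109508, plus strand): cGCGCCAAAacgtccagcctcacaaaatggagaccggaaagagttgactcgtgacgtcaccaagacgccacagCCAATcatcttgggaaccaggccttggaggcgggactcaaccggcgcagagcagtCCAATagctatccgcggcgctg

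CCAAT was present in 27 of 33 matched mitosis genes (81.8%) and in 37.1% of all matched genes. The CHR letters were present in 14 of 33 (42.4%, against 16.9%), and both together in 12 of 33 (36.4%, against 6.6%). An E2F match stood before 8 of 33 replication genes (24.2%, against 3.2%). Across all 27025 symbols with a window the shares were 34.5% for CCAAT, 25.5% for CHR and 1.6% for E2F. The 150 bases before Knstrn, which are not printed, held no CHR, CCAAT or E2F match. A match is a description of the letters only.

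Genes on either side of the cell cycle machinery moved less uniformly. Of 20 cell cycle exit genes and CDK inhibitors, 3 were higher and 4 lower. Ccnd1, cyclin D1 of the G1 phase, had the highest level among them, 1217 FPKM in FUBP1 and 166 in FUBP1-D. Ccnd2, cyclin D2, went from 102 to 24.7 FPKM, and its change of -2.01 was past 1 in neither other arm (NT -0.42, CIC -1.0). Btg2, an antiproliferative gene, was higher by 1.59 and was matched in both arms. Among 28 chromatin and DNA methylation genes 10 were lower and 4 higher, with a median change of -0.03. The largest changes were decreases: Hmgb2 was at 194 and 19.1 FPKM, H2afz at 964 and 112, and Hells at 30.3 and 2.70.

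Astrocyte genes formed the largest gain among the lists. Of 22, 18 were higher by 1 or more and none lower, with a median change of 2.71 against 1.93 in the NT arm (1.24 to 2.56 over its pairings) and 1.68 in the CIC arm, and 12 of the 18 were matched in both. Aqp4, the astrocytic water channel, was at 1.17 FPKM in FUBP1 and 108 in FUBP1-D. It reached 77.5 FPKM in 7, 258 in GFP-D and 72.0 in CIC-D, so the 4 differentiating libraries all lay above the highest proliferating one (13.3 in GFP). Ndrg2, an astrocytic gene tied to growth restraint, went from 6.88 to 245 FPKM, and Apoe, the lipid carrier, from 53.8 to 970.

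Gfap, the intermediate filament of astrocytes, was at 2.54 FPKM in FUBP1 and 61.1 in FUBP1-D. The NT libraries gave 2.36 and 5.73 before and 67.9 and 31.9 after, and the CIC arm 2.29 and 5.10. The increase thus ran with the NT arm, and its excess of 3.24 ± 1.04 over the CIC arm did not pass the limma test (adjusted p = 0.998). Slc1a2, the glutamate transporter of astrocytes, went from 4.46 to 32.1 FPKM, and Aldh1l1 and Gja1, further markers, from 42.9 to 328 and from 120 to 274. The 6 defining astrocyte markers summed to 805 FPKM in FUBP1-D, against 416 and 468 in 7 and GFP-D and 172 in CIC-D. Most of the sum in FUBP1-D came from Aldh1l1 and Gja1. In FUBP1 the sum of the 6 markers was 172 FPKM, within the range of the other proliferating libraries (81.6 to 308). By its sum the fuller astrocyte list did not set FUBP1-D apart, at 5960 FPKM against 5750, 6250 and 8750 in 7, GFP-D and CIC-D. By the mean of log2(FPKM + 1) over its kept genes FUBP1-D was the highest, at 6.89 against 6.63, 5.84 and 6.18.

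Complement and reactive glia genes were higher as well. Of 22, 18 were higher and none lower (median 2.34, against 1.92 in the NT arm and 1.53 in the CIC arm). The NT median ran from 0.851 to 3.125 over its pairings, a range that held the FUBP1 median. With a pseudocount of 5 the median in the FUBP1 arm was 1.16. C3, the central complement component (chr17:57343396-57367559 on mm9), had the largest increase of all genes, from 1.26 FPKM in FUBP1 to 214 in FUBP1-D. It was at 58.9 FPKM in 7, 764 in GFP-D and 434 in CIC-D, and never above 3.70 in a proliferating library. C1s, a complement protease, went from 0.319 to 31.7 FPKM, Lcn2, an iron-binding protein of reactive astrocytes, from 8.81 to 158, and Vcam1, an adhesion molecule, from 15.5 to 199. All 4 were matched in both arms. The sum of the 6 microglial markers was 0.0531 FPKM in FUBP1 and 0.0755 in FUBP1-D.

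Interferon response genes and antigen presentation genes were higher too, by amounts that varied between libraries. Of 33 interferon genes, 14 were higher and 1 lower (median 0.81), and 17 and 16 were higher in the NT and CIC arms. The NT median ranged from -0.30 to 2.67 over its pairings. Gbp2, an interferon-induced GTPase, was at 7.23 FPKM in FUBP1 and 110 in FUBP1-D, and at 234 in 7 and 26.3 in GFP-D. Ifit3 went from 3.04 to 31.8 FPKM, against 152 in 7, 10.3 in GFP-D and 301 in CIC-D. Ifitm3, an antiviral membrane protein with close relatives among which fragments could be split, was the gene that was lower, at 1098 and 200 FPKM. Of 17 antigen presentation genes 9 were higher and none lower (median 1.03), against 10 higher in the NT arm by the means and 11 in the CIC arm. In 7 minus TRC 15 were higher and in GFP-D minus TRC 11, against 5 in 7 minus GFP and 0 in GFP-D minus GFP. Among the antigen presentation genes H2-D1, a class I heavy chain with near-identical relatives, was at 63.8 and 375 FPKM, and Tapbp, its chaperone, at 15.6 and 53.7. H2-D1 was at 244 FPKM in GFP and 207 in GFP-D.

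The upstream windows of Gbp2 and Ifit3, the interferon genes with the largest increase, are given with the core of the interferon-stimulated response element (GAAANNGAA, either strand) in capitals.
Gbp2 (chr3:142620513-142620662, plus strand): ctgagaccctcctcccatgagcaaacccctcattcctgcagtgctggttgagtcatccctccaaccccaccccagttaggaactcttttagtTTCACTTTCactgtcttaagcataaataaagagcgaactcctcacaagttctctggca
Ifit3 (chr19:34583379-34583528, plus strand): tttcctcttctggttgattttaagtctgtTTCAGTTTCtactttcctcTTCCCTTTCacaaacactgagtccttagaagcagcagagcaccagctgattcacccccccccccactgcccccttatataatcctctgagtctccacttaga

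This core stood before 13 of 23 matched interferon genes (56.5%) and before 5.9% of all matched genes. Among the interferon genes past 1 in the FUBP1 arm it stood before 5 of 11 (45.5%). Across all symbols with a window the share was 7.2%.

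Genes of other neural lineages moved in both directions. Of 15 neuronal genes 7 were higher and 4 lower, and 2 of these 11 were matched in both arms. Nefl, a neurofilament subunit, was at 206 FPKM in FUBP1 and 13.7 in FUBP1-D, and Gap43, a growth cone protein, at 30.6 and 1.39. Scg3, a secretory granule protein, was at 4.21 and 52.7 FPKM. Stmn2, a neuronal tubulin regulator, was at 0.191 FPKM in FUBP1 and 10.8 in FUBP1-D, against at most 5.10 in any of the other 6 libraries. Tubb3, the neuronal tubulin, reached 2.70 FPKM in FUBP1-D and Map2, a dendritic microtubule protein, went from 57.3 to 42.2.

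Of 14 oligodendrocyte lineage genes 4 were higher and 3 lower, and 4 of these 7 were matched in both arms. Cnp, an enzyme of myelinating cells, was at 56.9 and 228 FPKM, and 237, 98.2 and 103 in 7, GFP-D and CIC-D. Nkx2-2, a transcription factor of the lineage, was lower (18.2 and 6.12). Of the ciliated cell genes, Foxj1, the master factor of motile cilia, was at 9.02 and 34.2 FPKM and was higher in both other arms. Of the ependymal list 2 of 3 genes were higher, of the fibroblast list 1 of 5 was higher and 2 lower, of the endothelial list 1 of 2 was lower, and neither of the 2 microglial genes above the filter was past 1.

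Progenitor genes as a list had no common direction, with 4 of 24 higher and 6 lower (median 0.275). The 6 progenitor markers summed to 4420 FPKM in FUBP1 and 4670 in FUBP1-D, mostly through Vim, an intermediate filament, at 2530 and 3530. Sox2, a stem cell factor, was at 130 and 238 FPKM, Nes at 67.4 and 88.4, and Olig2 at 397 and 180. Fabp7, the radial glial lipid-binding protein (chr10:57504729-57508256 on mm9), remained high in FUBP1-D. It was at 1285 FPKM in FUBP1 and 619 in FUBP1-D, while the NT libraries went from 1002 and 1434 to 202 and 149, and the CIC arm from 2493 to 98.9. The change of -1.05 was smaller than the NT change of -2.79 by 1.73 ± 0.59 and smaller than the CIC change of -4.64 by 3.59 ± 0.68, and neither difference passed the limma test (adjusted p = 1.0 and 0.998). Fabp7 is a marker and was also among the genes picked because their decrease fell short of both other arms, which favours such differences. Hmga2, a growth-associated chromatin protein, went from 97.2 to 14.2 FPKM and was lower in all arms.

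**Figure D3:**
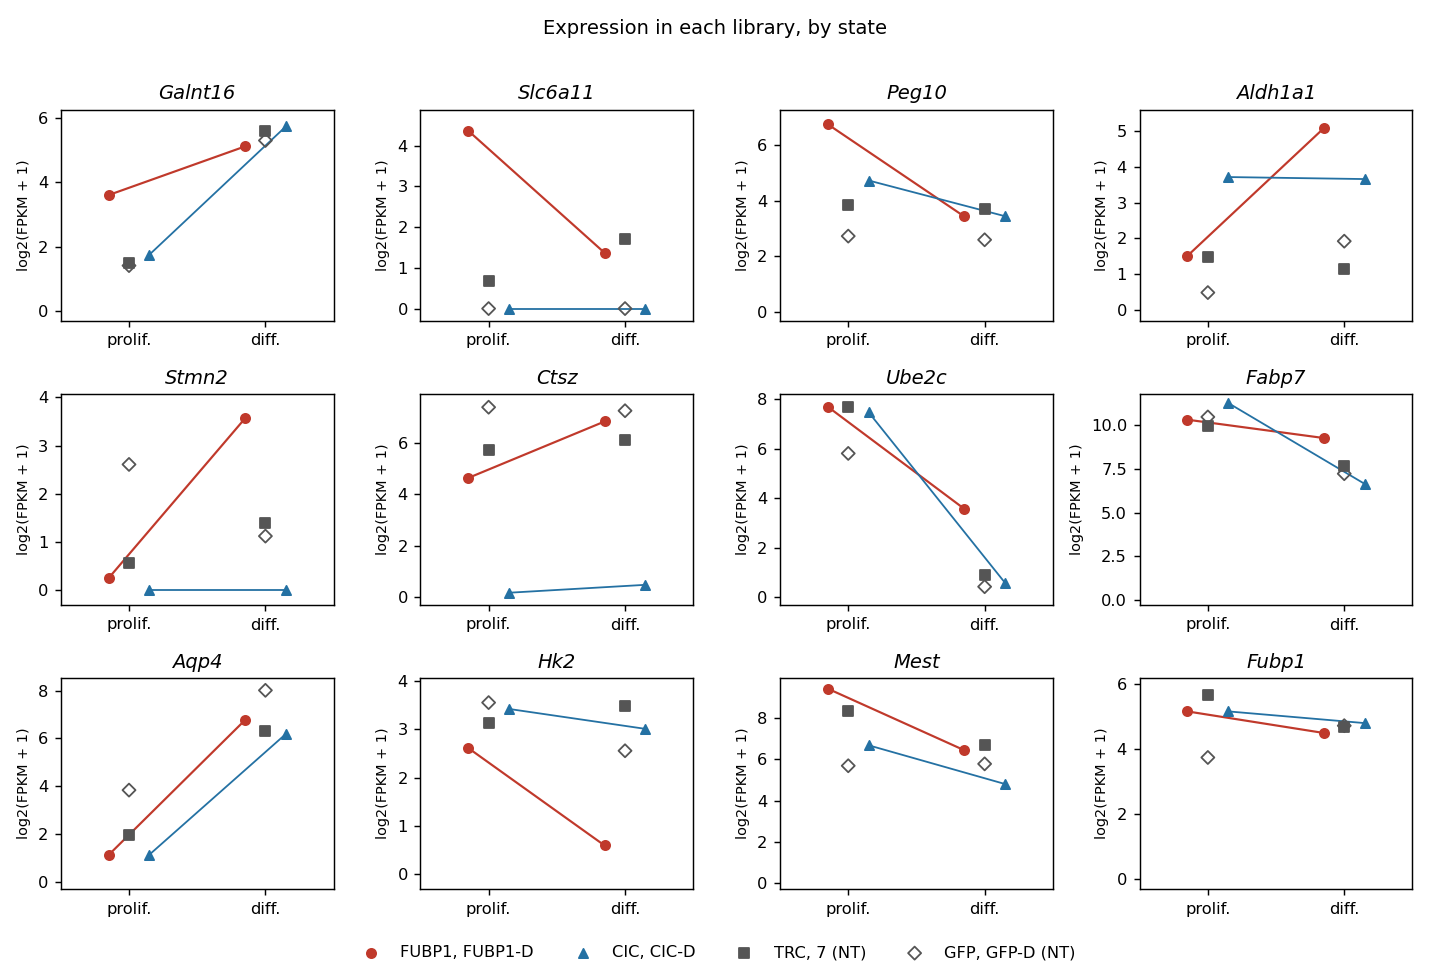
Expression as log2(FPKM + 1) in the 8 libraries for 12 genes, with proliferating libraries at the left and differentiating ones at the right of each panel, lines joining the FUBP1 and the CIC pair. Ube2c and Fabp7 end higher in FUBP1-D than in the other differentiating libraries, and Slc6a11 starts highest in FUBP1 (19.6 FPKM).

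The genes of the CIC and ERK responsive list were mostly lower in all arms. Of 20 CIC and ERK responsive genes, 11 were lower and 1 higher in the FUBP1 arm, against 12 lower in the NT arm and 14 in the CIC arm, and the medians were -1.12, -1.37 and -1.61 (-0.78 in the FUBP1 arm with a pseudocount of 5). Dusp4 and Dusp6, phosphatases that restrain ERK, were at 74.2 and 4.76 FPKM and at 166 and 24.5. Spry1, an inhibitor of receptor signalling, was at 66.9 and 4.93. The letters TGAATGAA or TGAATGGA, the site CIC binds, stood before 1 of 11 matched genes of the list (9.1%, against 1.3% of all matched genes and 2.1% of all symbols with a window), and before 0 of the 5 matched members that were past 1 in the FUBP1 arm. Myc, the growth regulator, was at 47.5 FPKM in FUBP1 and 15.2 in FUBP1-D, a change of -1.58 that was matched in the NT arm (-1.17) and the CIC arm (-1.47). The list of FUBP family and Myc network genes had 3 of 14 higher and 2 lower, with Mxd4, a Myc antagonist, at 12.2 and 56.5. The list of LSD1 complex genes had 2 of 20 higher and 1 lower (median -0.07), among them Phf21a, a reader of unmethylated histone H3, at 9.36 and 23.1.

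Other signalling lists held changes of both signs. In the Notch list 2 of 15 were higher and 3 lower: Jag1, a ligand, went from 25.2 to 2.46 FPKM, Hes1, a target, from 33.1 to 10.5, and Notch2, a receptor, from 9.91 to 58.7. The hedgehog and Wnt list had 5 of 21 higher and 1 lower, with Ptch1, the hedgehog receptor, at 12.9 and 47.6 FPKM and Wnt5a, a ligand, at 17.6 and 46.9. The BMP list had 2 of 16 higher and none lower, and the immediate early list 6 of 20 higher and 2 lower. Of 29 growth factor receptor and binding protein genes 7 were higher and 3 lower. Erbb4, a neuregulin receptor, was at 0.393 and 8.11 FPKM, close to 8.32 and 8.66 in the differentiating NT libraries, and changed by 0.05 in the CIC arm, where it was already at 5.77 FPKM in CIC. Igfbp2, which binds insulin-like growth factors, was at 324 and 34.6.

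Most glycolysis and hypoxia genes were lower in FUBP1-D than in FUBP1. Of 25 genes 15 were lower by 1 or more and 1 higher, with a median change of -1.15. In the NT arm 4 were lower by the means (median -0.32). Its pairings with GFP-D had 11 (minus TRC) and 12 (minus GFP) lower, and those with 7 had 2 (minus TRC) and 3 (minus GFP), with medians from -0.99 to -0.01. In the CIC arm 4 were lower and 9 higher (median 0.05). Of the 16 genes past 1, 10 were past 1 in neither other arm, and 20 of the 25 (80.0%) had a lower change in the FUBP1 arm than in both others, against 34.1% of all genes tested. Below all 4 NT pairings lay 6 of the 25, against 16.7% of all genes. After quantile normalization the median of the list in the FUBP1 arm was -0.57, short of 1. The list's sum went from 8550 to 3340 FPKM, while GFP-D reached 4570, CIC-D 5310 and 7 stayed at 7490.

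Ldha, lactate dehydrogenase, was at 957 FPKM in FUBP1 and 138 in FUBP1-D, with 307, 126 and 146 in 7, GFP-D and CIC-D, and so was lower in each arm. Hk2, the hexokinase of the first glycolytic step, was at 5.11 and 0.513 FPKM. Its NT values were 7.68 and 10.7 before and 10.2 and 4.87 after, and the CIC arm had 9.68 and 7.03. Slc16a3, a lactate exporter, was at 4.72 and 0.446 FPKM, below the 2.25 to 8.77 of the other differentiating libraries. The differences from the NT arm, -1.70 ± 0.73 for Hk2 and -1.66 ± 1.12 for Slc16a3, did not pass the limma test (adjusted p = 1.0 for both). For both genes FUBP1-D was the lowest of the 8 libraries.

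**Figure D4:**
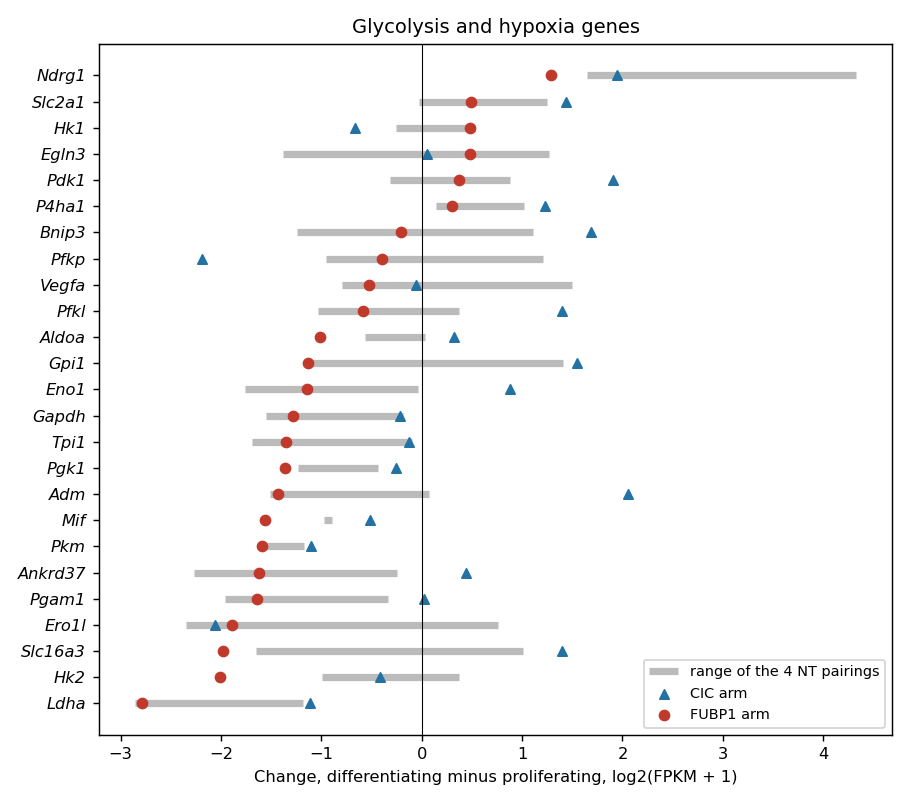
Change of log2(FPKM + 1) for the 25 glycolysis and hypoxia genes in the FUBP1 arm (circles), the CIC arm (triangles) and over the 4 pairings of NT libraries (bars). The FUBP1 arm lies left of the CIC arm for most genes, and lies left of all NT pairings for 6 of 25.

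Lysosomal genes were higher in the FUBP1 arm, 14 of 31 with 1 lower (median 0.86), against 2 higher in the NT arm (median 0.45) and 7 in the CIC arm (median 0.39). The NT count was by the means. In 7 minus TRC 14 were higher and in GFP-D minus TRC 17, against 1 in 7 minus GFP and 0 in GFP-D minus GFP. The NT median ran from -0.45 to 1.06 over the pairings, so the range of the NT libraries held the FUBP1 value. Ctsz, a cathepsin, was at 23.7 FPKM in FUBP1 and 112 in FUBP1-D, while the NT libraries had 51.6 and 165 before and 67.5 and 150 after. FUBP1 was thus below both proliferating NT libraries, and the gene was at 0.126 and 0.393 FPKM in the CIC arm. Ctsl, another cathepsin, was at 58.0 and 183 FPKM and was matched in both arms. Ctsc, also a cathepsin, was the gene that was lower, at 67.5 and 2.54, and was lower in both other arms too.

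Biosynthetic genes were mostly lower. Of 33 cytosolic ribosomal protein genes, 27 were lower and none higher (median -1.27, against -1.51 in the NT arm and -1.61 in the CIC arm), and 24 of the 27 were matched in both. After quantile normalization the median in the FUBP1 arm was -0.72. Rps2 was at 2082 and 507 FPKM and Rpsa at 884 and 224. Rps27 and Rpl26, which were not in the list, had larger decreases, from 84.3 to 2.18 and from 157 to 7.90 FPKM. However, ribosomal protein genes have many processed copies, among which fragments could be split, and Rps27 also differed between the NT libraries, at 89.2 FPKM in TRC and 7.02 in GFP, so both are uncertain. Of 33 respiratory chain genes 10 were lower and none higher, Cycs (cytochrome c) at 150 and 28.7 among them. Of 39 splicing regulators 16 were lower and 1 higher (NT 10 lower by the means and 2 to 20 over the pairings, CIC 11). Srsf2, a serine-arginine splicing factor, was at 279 and 54.5.

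The cholesterol and fatty acid list had 16 of 34 lower and 1 higher (median -0.95, NT -0.98, CIC -0.55). The NT median was by the means and ran from -1.705 to -0.185 over the pairings. In 7 minus TRC 24 were lower and in GFP-D minus TRC 26, against 1 in 7 minus GFP and 8 in GFP-D minus GFP. The list summed to 3820 FPKM in TRC and 1700 in GFP. Fdps, an enzyme of isoprenoid synthesis, was at 276 and 50.2 FPKM, and Insig1, a sterol-sensing regulator, at 255 and 61.0. Abca1, a cholesterol exporter, was the gene that was higher, at 7.41 and 39.9. The ATF4 and amino acid list had 9 of 27 lower (median -0.39), as against 23 lower in the CIC arm (median -2.02), and all 11 of its genes past 1 were past 1 in at least 1 other arm. Mthfd2, a mitochondrial folate enzyme, was at 35.5 and 1.53 FPKM and Shmt2, serine hydroxymethyltransferase, at 121 and 25.2.

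Matrix genes changed in both directions. Of 35, 14 were higher and 5 lower (median 0.53, NT 0.19, CIC 0.15), and 12 (34.3%, against 19.8% of all genes) lay above all 4 NT pairings. The NT median ran from -0.01 to 0.60 over the pairings, so their range held the FUBP1 median. Timp2, a metalloprotease inhibitor, was at 35.2 and 278 FPKM and Col6a1, a collagen VI chain, at 3.29 and 47.1. Both were higher in the other arms as well. Spp1, osteopontin, went from 235 to 23.9 and Tnc, tenascin C, from 53.6 to 8.32, and both were lower in all arms. Of 21 p53 target genes 5 were higher and 2 lower, with Fas, a death receptor, at 2.83 and 58.2 FPKM and Sesn1, a stress-induced regulator, at 13.3 and 83.1, as in the other arms. Few endoplasmic reticulum chaperone genes moved (3 of 21 lower, none higher).

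The 12 imprinted genes had a median change of -0.51, against 0.48 in the NT arm (-0.15 to 0.99 over the pairings) and 0.41 in the CIC arm. The list had 3 higher and 3 lower, and 7 of 12 (58.3%, against 16.7% of all genes) lay below all 4 NT pairings. Peg10, a retrotransposon-derived gene, was at 105 FPKM in FUBP1 and 9.80 in FUBP1-D. TRC and GFP had 13.4 and 5.63 and 7 and GFP-D 11.9 and 5.05, and CIC and CIC-D had 25.3 and 9.85. Mest, also paternally expressed, was at 695 and 86.4 FPKM, and TRC was at 323. For both, FUBP1-D was within the range of the other differentiating libraries and FUBP1 was the highest library.

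Genes of glutamate and GABA handling moved in both directions, with 5 of 16 higher and 4 lower. Slc6a11, the transporter GAT3, was at 19.6 FPKM in FUBP1 and 1.58 in FUBP1-D. It was listed at 0 in GFP, GFP-D, CIC and CIC-D, and was at 0.60 in TRC and 2.24 in 7. Abat, which breaks GABA down, was at 3.20 and 48.5 FPKM and was higher in all arms. Among 24 synapse and channel genes 8 were higher and 6 lower, with Gria1, a glutamate receptor subunit, at 1.57 and 55.1, and Grm5, a metabotropic receptor, at 34.0 and 4.43.

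Among the 8 genes whose decrease exceeded both other arms by the largest margin, FUBP1 was the highest proliferating library for all but Rps27. Picking genes by this margin favours such a level and a large difference between arms. Chn2, a Rac regulator, was at 24.7 FPKM in FUBP1, at most 1.73 in the other proliferating libraries and 1.39 in FUBP1-D. Pla2g3, a secreted phospholipase, was at 8.38 FPKM in FUBP1 against at most 0.569, and at 0.331 in FUBP1-D. Bex2 was at 61.4 and 6.72 FPKM, with 15.5 in TRC and at most 1.06 in GFP and CIC. For Pla2g3 the change differed from the NT arm by -3.34 ± 0.66 and from the CIC arm by -3.01 ± 0.76, and for Chn2 from the NT arm by -3.39 ± 0.95. None passed the limma test (adjusted p = 1.0 against NT and 0.998 against CIC).

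Among the 8 genes whose increase exceeded both other arms by the largest margin, FUBP1-D was the highest differentiating library for all but Lama4 and Lmcd1. Here too the choice favours such a level and a large difference between arms. Aldh1a1, a retinaldehyde dehydrogenase (chr19:20676472-20717952 on mm9), was at 1.85 FPKM in FUBP1 and 32.7 in FUBP1-D. The other differentiating libraries had 1.21, 2.79 and 11.6, and the CIC library already had 12.1. The change of 3.56 differed from the NT change by 3.01 ± 0.84 and from the CIC change by 3.62 ± 0.97, without passing the limma test (adjusted p = 1.0 and 0.998). Fam107a was listed at 0 in all 4 proliferating libraries and was at 11.1 FPKM in FUBP1-D, 1.2 in 7, 0.0654 in GFP-D and 0.225 in CIC-D. Ppp2r2b, a regulatory subunit of protein phosphatase 2A, was at 0.171 and 23.8 FPKM, and reached 6.12 in 7, 0.25 in GFP-D and was listed at 0 in CIC-D. Capn1, a calpain protease, was at 0.827 and 23.6, with 15.6 in GFP-D. Of the 12 retinoid genes 6 were higher and 2 lower, and Dhrs3, a retinaldehyde reductase, was at 1.13 and 21.9 FPKM and was higher in all arms.

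Some increases of the other arms were smaller in the FUBP1 arm or were not seen there. The genes given here were picked because their change fell short of both other arms by a large margin. That choice favours levels that stand apart. Galnt16, a glycosyltransferase, was at 11.1 FPKM in FUBP1 and at most 2.37 in the other proliferating libraries, and at 33.4 in FUBP1-D against 38.1 to 51.9 in the others. Its change was 1.51, against 4.0 in the NT arm, a difference of -2.48 ± 0.48 (limma adjusted p = 1.0). Gmpr, guanosine monophosphate reductase, was at 13.3 and 20.5 FPKM, below the 55.2 to 105 of the other differentiating libraries. Bcar3, a signalling adaptor, was at 4.07 and 2.18, below 5.64 to 7.65. For Galnt16 mainly the starting level stood apart, for Gmpr the final one, and for Bcar3, which was lower in FUBP1-D than in FUBP1, both.

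The strongest single changes of the arm were otherwise shared. The 15 largest increases included Ogn, a small matrix proteoglycan, at 0.620 and 45.6 FPKM, Txnip, an inhibitor of thioredoxin, at 2.54 and 96.5, Cryab, a small heat shock protein, at 7.54 and 185, Tgm2, a transglutaminase, at 4.15 and 103, and Pla2g7, a lipoprotein-associated phospholipase, at 2.38 and 61.2. All but Ppp2r2b of these 15 were past 1 in both other arms. The largest decrease was that of Nptx1, a neuronal pentraxin (chr11:119400033-119409134 on mm9), at 193 FPKM in FUBP1 and 2.92 in FUBP1-D. It was at 256 and 135 in TRC and GFP, 3.16 and 0.624 in 7 and GFP-D, and 35.1 and 0.901 in the CIC arm. Adam12, a membrane metalloprotease, was at 51.8 and 1.29. Its starting level was high in FUBP1 and CIC (42.8) and low in TRC and GFP (8.29 and 7.21). All but Rps27 of the 15 largest decreases were past 1 in both other arms.

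**Figure D5:**
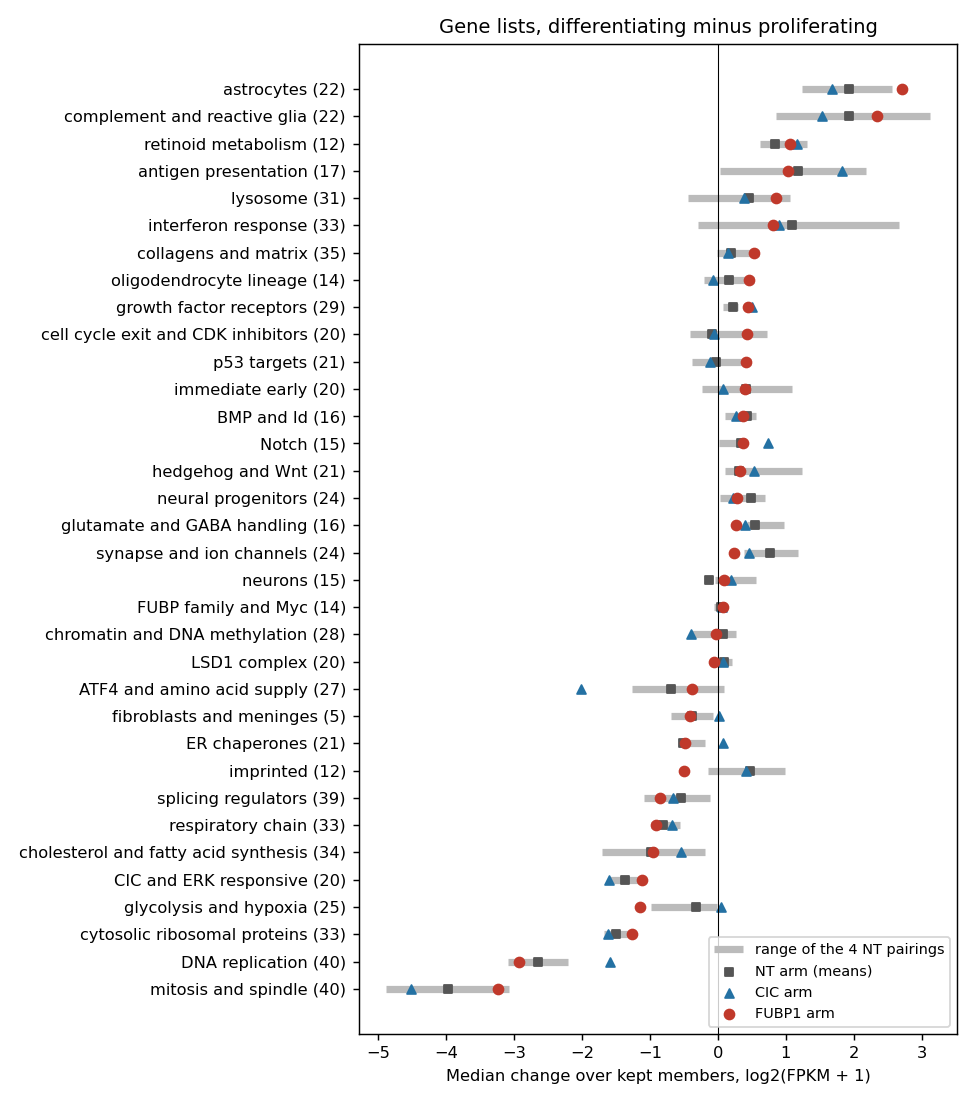
Median change of log2(FPKM + 1) over the kept genes of each list, with the number of genes in brackets, for the FUBP1 arm (circles), NT arm (squares, with the range of its 4 pairings as bars) and CIC arm (triangles). Mitosis genes lie lowest and astrocyte genes highest in the FUBP1 arm, and the glycolysis, imprinted, LSD1 complex, synapse, and glutamate and GABA lists lie left of every NT pairing.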

How the data were processed

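RNA was measured in 8 libraries, and the authors deposited 1 table with an FPKM value for each gene and library. The submitters' processing notes name mm9 as the build, and Cufflinks 2.1.1, TopHat2 2.0.11, cutadapt and bcl2fastq 2.17 among the tools. Their order and settings, the gene models and any use of strand are not stated, so overlapping genes are uncertain. The table counts starts from 0, and starts are given from 1. Sequencing depth is unknown: the size of the steps of values up to 0.2 FPKM was 1.24 times larger in FUBP1-D than in FUBP1, and 15.9% of 1179 genes lay within 5% of that ratio, so whole reads were not recovered.

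FPKM was used as deposited, with rows at 1 FPKM or more in 2 or more libraries and a pseudocount of 1. NT libraries were averaged per state. The difference between arms was tested with limma 3.58.1 (R 4.3.3) on 6 group means, with Benjamini-Hochberg adjustment over 11968 rows. Named genes are the 15 largest changes each way, up to 4 per list, the 8 that most exceed or fall short of both other arms in each direction, the targets, and cell type markers. Aldh1l1, Gja1, Vim, Sox2, Nes, Olig2, Map2 and Tubb3 are markers. The genes and the 37 lists were chosen with earlier results of these data known. Alternatives covered pseudocounts of 0.1 and 5, filters, scaling, a change of 2, and each NT library left out. Results for some genes are not reported here.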

Additional observations from a re-analysis of the deposited data

How the results depend on the processing

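With a pseudocount of 5 in place of 1, 955 genes were higher in the FUBP1 arm (1919 with 1) and 894 changes were matched in both other arms (1573 with 1). At a change of 2 in every arm, 431 were higher, 427 lower and 341 matched. Requiring each of the 4 NT pairings left 861 matched. Leaving out 1 NT library at a time gave 1225 to 1737 matched. Without a filter on low values, limma called 376 genes against NT and 564 against CIC, of which 0 and 4 were among the 11968 filtered rows. In every other alternative limma called 0 genes for both comparisons. Scaling by median of ratios gave 1736 higher and 1747 lower, quantile normalization 1673 and 1654, so which direction held more genes depended on the scaling. Of 162 named genes past 1, 144 stayed past 1 with a pseudocount of 5, 160 after quantile normalization and 162 in the other alternatives, and none changed sign. Of 10 list medians past 1, 5 stayed past 1 with a pseudocount of 5, 6 after quantile normalization and 8 with median of ratios. Medians that moved by over 1.5 times or fell under 1 included, after quantile normalization, glycolysis and hypoxia (-0.57), ribosomal proteins (-0.72) and respiratory chain (-0.49), and, with a pseudocount of 5, ependyma (0.56), complement (1.16), CIC and ERK responsive (-0.78) and retinoid genes (0.72). The cause of these shifts was not tested. Single libraries in the FUBP1 and CIC arms and 2 NT libraries per state limit all comparisons. No paired analysis was possible because, of the NT libraries, the names tie GFP-D to GFP but not 7 to TRC, and the replicate numbers follow the order of deposition.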
